A study of Mus musculus with 16 samples.

Results

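The genes examined here encode the nuclear subunits of the mitochondrial respiratory chain, and they were followed across 4 sorted cell populations of the mouse femur. They were the rows of the expression table whose gene name began with Nduf followed by a, b, c, s or v and a digit, was Sdha, Sdhb, Sdhc or Sdhd, or began with Uqcr, Cox4 to Cox8, or Atp5. This rule took 85 of 22559 genes and used no measured value. Complex I had 37 of them, complex II 4, complex III 8, complex IV 18 and complex V 18. A total of 83 passed a filter of at least 10 normalized counts in at least 4 libraries. Cox7b2 and the pseudogene Atp5l-ps1 did not, and their values were between 0 and 16.8 normalized counts in every library.

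Complexes I and II feed electrons from NADH and succinate into the ubiquinone pool, complex III passes them to cytochrome c, and complex IV (cytochrome c oxidase) hands them to oxygen. Complexes I, III and IV pump protons, and complex V, the ATP synthase, uses the gradient to make ATP. The subunits measured here are made from nuclear genes. The catalytic partners encoded by mitochondrial DNA were not analysed here. In skeletal cells, osteogenic differentiation is known to go along with more oxidative metabolism, and growth plate chondrocytes are known for glycolysis.

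Cells came from femurs of C57/B6 mice at postnatal day 6 that carried CTSK-cre and the mTMG reporter, and all 4 groups carried both. In these mice, Cre expressed from the cathepsin K locus switches a membrane reporter from Tomato to GFP, so that the label marks a lineage, including cells that no longer express cathepsin K. Periosteal stem cells (PSC) and periosteal progenitors of type 1 (PP1) and type 2 (PP2) were sorted as GFP-positive cells, and endosteal mesenchymal stem cells (MSC) as GFP-negative cells, with 4 libraries in each group. The animals were littermates collected on a single day and no material was pooled, but the labels do not tie libraries to animals, so each p-value reflects only how these libraries vary, and that variation may be technical. The recovered depth was 28531622 to 32653563 reads per library in PSC, 22306403 to 32678670 in PP1 and 24302376 to 41152070 in PP2, against 39450851 to 48356249 in MSC. Ctsk itself averaged 2751 ± 558 normalized counts in PSC, 12338 ± 1870 in PP1 and 7393 ± 789 in PP2, against 2082 ± 136 in MSC (mean ± SD of 4 libraries), so its RNA level was close in PSC and MSC. The 5 chondrocyte markers summed to 2600233 to 4574499 normalized counts in PSC, 1162932 to 1472561 in PP1 and 1556873 to 2062694 in PP2, against 5547140 to 8374468 in MSC. Col2a1 alone took 17.9% ± 3.0 of the normalized total in MSC, against 3.55% ± 0.32 in PP1. In such bulk libraries, fewer cells of a type and less RNA per cell cannot be told apart.

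Promoter sequences are printed first for 4 members that illustrate the patterns described below: Cox6a1, Uqcr11 and Atp5g1, which were higher in PSC than in each other group, and Ndufv1, a catalytic subunit that was lower in PSC than in PP1. They are the RefSeq promoters of build GRCm38.p6, 250 bases before to 50 bases after the annotated start, 5′ to 3′ on the minus strand on which all 4 genes lie. The Cox6a1 window is chr5:115348909-115349208, Uqcr11 chr10:80406772-80407071, Atp5g1 chr11:96075582-96075881 and Ndufv1 chr19:4012706-4013005. Capitals mark matches to the letters GCATGCG (NRF1) or CCGGAAG (the ETS core bound by GABP) on either strand; an NRF1 match on the one strand overlaps that on the other.
Cox6a1: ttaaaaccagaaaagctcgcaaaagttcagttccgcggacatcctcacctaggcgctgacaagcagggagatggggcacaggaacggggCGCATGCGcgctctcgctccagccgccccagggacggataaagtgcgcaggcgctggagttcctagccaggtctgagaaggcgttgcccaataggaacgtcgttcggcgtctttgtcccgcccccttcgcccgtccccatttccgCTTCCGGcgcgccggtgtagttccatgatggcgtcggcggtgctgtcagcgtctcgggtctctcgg
Uqcr11: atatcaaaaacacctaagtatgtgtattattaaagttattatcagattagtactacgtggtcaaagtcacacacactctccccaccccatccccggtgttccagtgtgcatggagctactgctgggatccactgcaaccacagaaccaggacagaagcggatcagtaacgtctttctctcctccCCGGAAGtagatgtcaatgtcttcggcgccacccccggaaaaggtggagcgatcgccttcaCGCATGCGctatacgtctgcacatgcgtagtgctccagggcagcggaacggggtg
Atp5g1: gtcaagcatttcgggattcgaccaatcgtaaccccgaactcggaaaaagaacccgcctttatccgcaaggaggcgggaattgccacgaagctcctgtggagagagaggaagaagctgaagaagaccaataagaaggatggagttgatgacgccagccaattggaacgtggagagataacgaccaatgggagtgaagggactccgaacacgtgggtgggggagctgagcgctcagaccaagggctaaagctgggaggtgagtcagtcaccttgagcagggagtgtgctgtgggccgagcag
Ndufv1: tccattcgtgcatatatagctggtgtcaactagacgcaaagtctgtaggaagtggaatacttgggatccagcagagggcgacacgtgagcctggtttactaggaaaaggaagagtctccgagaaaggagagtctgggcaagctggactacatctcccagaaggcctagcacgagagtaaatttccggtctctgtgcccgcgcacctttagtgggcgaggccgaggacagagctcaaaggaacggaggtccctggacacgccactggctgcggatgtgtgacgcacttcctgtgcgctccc
NRF1 and GABP are transcription factors known to bind the promoters of many respiratory chain genes. The Cox6a1 and Uqcr11 windows each held an NRF1 and an ETS match, and the Atp5g1 and Ndufv1 windows held neither. Of the 85 members, 66 had a promoter in the table of 27025 genes. NRF1 letters were found in 16.7% of these 66 promoters (11 members) and in 4.01% of all promoters, and ETS letters in 24.2% (16 members) and in 9.93%. YY1 (AAGATGG) was found in 15.2% of member promoters and 7.28% of all, the estrogen-related receptor element ERR (AAGGTCA) in 12.1% and 5.38%, and the cAMP response element CRE (TGACGT) in 12.1% and 8.37%. Among the 12 promoters available for the 14 members that were higher in PSC than in each other group, 3 held NRF1 letters and 2 held ETS letters. A match is a description of the letters and no more.

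As a whole, the respiratory chain transcripts were highest in PSC and lowest in MSC. The 85 members made up 1.27% ± 0.10 of the normalized total in PSC, 1.21% ± 0.11 in PP1 and 1.12% ± 0.13 in PP2, against 0.908% ± 0.157 in MSC (mean ± SD of 4 libraries). Libraries ranged from 1.16% to 1.39% in PSC and from 1.06% to 1.30% in PP1, with overlap. The total includes Col2a1, at 8.09% ± 2.07 in PSC, 3.55% ± 0.32 in PP1 and 5.11% ± 0.50 in PP2, against 17.9% ± 3.0 in MSC. A larger Col2a1 share lowers the share of all other genes, and member shares without Col2a1 were not computed. Of the 83 tested members, 56 had their highest group mean in PSC, 20 in PP1 and 7 in PP2, and 57 had their lowest in MSC. MSC replicate 3 stood apart: its member share was 0.681%, against 0.926% to 1.03% in the other 3 MSC libraries. Replicate 3 was the lowest library for this share in all 4 groups, and it was also the lowest in all 4 for the share of cytosolic ribosomal protein transcripts. Whether the same feature of those libraries set both was not tested. The counts of members called higher than in MSC, and the member medians against MSC, are given with and without MSC replicate 3. The counts of members without overlap and of members lowest in MSC are given with all libraries only.

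**Figure D1:**
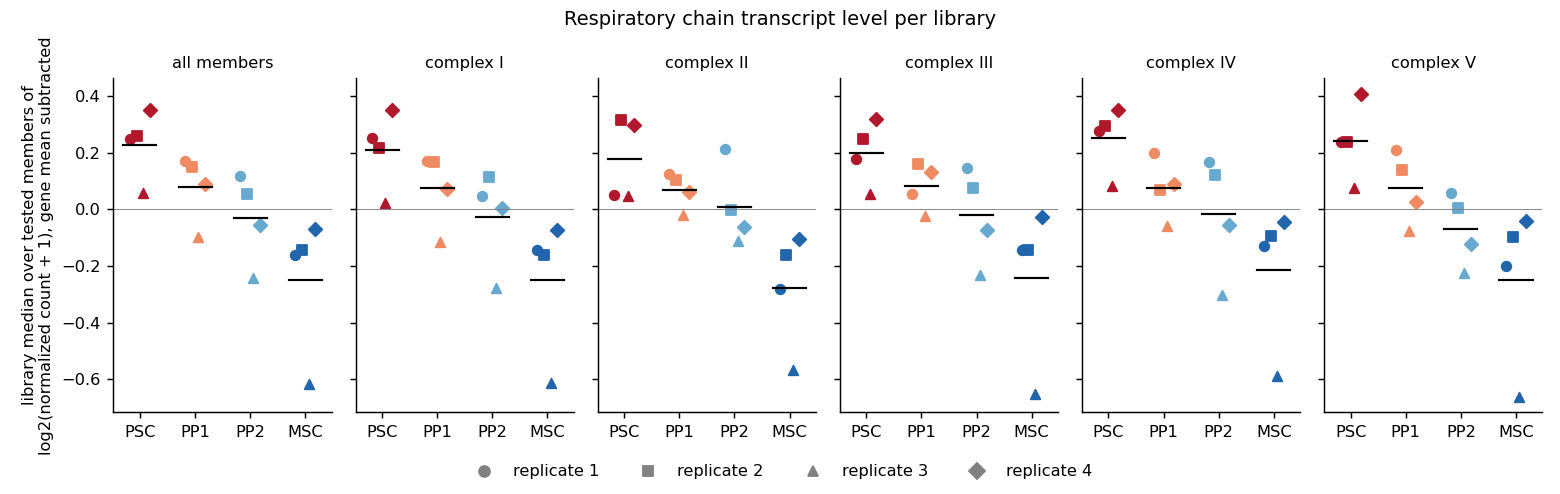
Level of respiratory chain transcripts in each library, by complex: the y axis is the median over tested members of log2(normalized count + 1) after subtracting each gene's mean over 16 libraries, each symbol is a library and the black line is the group mean. Over all members the group means were 0.23 in PSC, 0.08 in PP1 and -0.03 in PP2, against -0.25 in MSC, and MSC replicate 3 lay lowest at -0.62.

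PSC against MSC gave the largest number of differing members: 46 of 83 (55.4%) were higher in PSC, against 12.1% of all 13797 tested genes, and 0 were lower, against 14.2% of all tested genes (limma on log2(normalized count + 1), Benjamini-Hochberg adjusted p under 0.05). No member was called lower by edgeR, DESeq2 or voom on the recovered reads either, and 0 were lower at an unadjusted p under 0.05. Without PSC replicate 1, 1 member was called lower. The median member difference was 0.44 on the log2 scale, against -0.18 over all tested genes. With edgeR and TMM scaling of the recovered reads these medians were 0.48 and -0.04. All 4 PSC libraries lay above all 4 MSC libraries for 52 members (17.6% of all genes), and 0 members showed the reverse (21.1%). Higher members numbered 14 of 37 in complex I, 3 of 4 in complex II, 6 of 8 in complex III, 9 of 17 in complex IV and 14 of 17 in complex V. Without MSC replicate 3 the count of higher members was 27, where 1169 of all 13797 tested genes were higher. The member median was then 0.32, against -0.17 over all genes. Without PSC replicate 4 the count was 30, where 1284 of all genes were higher. Without MSC replicate 3 the complexes gave 11, 1, 4, 4 and 7 higher members from I to V. The chondrocyte marker sums given above were also lower in PSC than in MSC. The 6 erythroid markers summed to 941 to 5370 normalized counts in PSC, 565 to 9801 in PP1 and 335 to 4102 in PP2, against 51.4 to 1379 in MSC. Of the 5 erythroid markers tested, 2 were higher in PSC than in MSC and 3 in PP1 than in MSC, and 0 in each case without MSC replicate 3. The part of both marker lists in these differences was not tested.

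Within the GFP-positive lineage, PSC also exceeded the progenitors in some subunits. Against PP1, 18 of 83 members (21.7%) were higher in PSC, where 16.1% of all genes were, and 4 (4.82%) were lower, where 15.1% were, with a member median of 0.18 and a median of 0.04 over all tested genes. Against PP2, 25 (30.1%) were higher, where 17.6% of all genes were, and 3 (3.61%) lower, where 15.2% were, with a member median of 0.24 and 0.08 over all genes. The lower members were Ndufv1, Cox6b2, Cox8c and Atp5c1 against PP1, and Ndufs7, Cox6b2 and Cox4i2 against PP2. Leaving out PSC replicate 1 gave 2 lower members against PP1 and leaving out PP2 replicate 3 gave 7. Leaving out PSC replicate 4, PP2 replicate 1 or PP2 replicate 2 gave 1 lower member against PP2. Both comparisons share the PSC libraries. The member median against PP1 was 0.10 without PP1 replicate 3 and 0.09 on CPM of the library total. The 5 osteoblast markers moved in the same direction: they summed to 31390 to 37251 normalized counts in PSC, 5809 to 11667 in PP1 and 8265 to 13749 in PP2, against 35771 to 51992 in MSC. PSC exceeded PP1 in 4 of these markers and PP2 in all 5, with median differences of 2.23 and 2.46, and 4 markers were lower in PP1 and 5 in PP2 than in MSC. Other marker lists held markers that were lower in PSC. Of the tested osteoclast markers, 4 of 5 were lower than in PP1 and 1 of 5 than in PP2. For pericyte and smooth muscle markers these were 3 and 2 of 4, and for macrophage and leukocyte markers 2 and 0 of 3. No marker of these lists was higher in PSC. Of 6 skeletal muscle markers, 4 were lower than in each of PP1 and PP2, 2 higher than in PP1 and 1 higher than in PP2. The part of all these lists in the member differences was not tested.

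**Figure D2:**
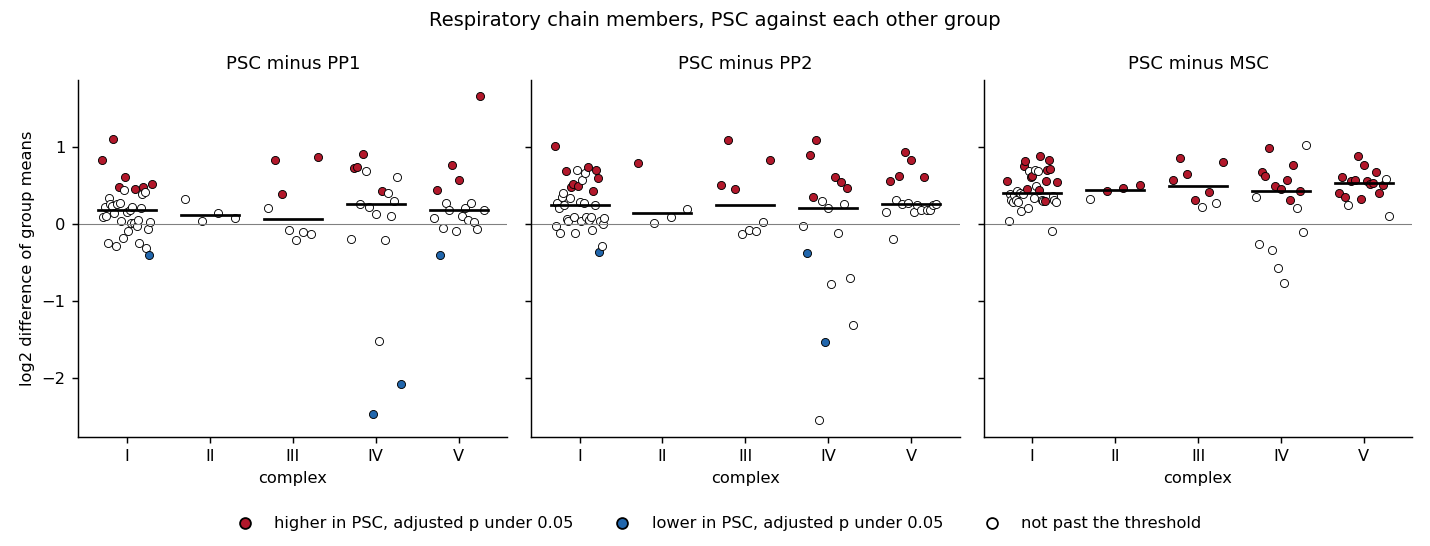
Log2 difference of group means for each tested member, by complex, in PSC minus PP1, PSC minus PP2 and PSC minus MSC; filled points passed an adjusted p of 0.05 and black lines are medians. Against MSC the medians were 0.40 in complex I, 0.44 in II, 0.49 in III, 0.42 in IV and 0.53 in V. Without MSC replicate 3 they were 0.29, 0.36, 0.35, 0.27 and 0.37. The lowest points of the first and middle panels are complex IV isoforms of low level.

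PP1 and PP2 gave the fewest calls of any pair. Cox4i2 was the only member called between them, lower in PP1, and 0 members were called higher by limma, edgeR, DESeq2 or voom. At an unadjusted p under 0.05, 5 members were higher and 5 lower in PP1. Across all genes, 0.478% were higher and 0.355% lower in PP1. The adjusted p of the other members does not show that they were equal in PP1 and PP2: the member median was 0.12 (0.06 without PP2 replicate 3), and all PP1 libraries lay above all PP2 libraries for 5 members (2.39% of all genes) and below for 2 (2.35%).

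Against MSC, 29 members (34.9%) were higher in PP1, where 8.88% of all genes were, and 2 lower, where 12.6% were, with a median of 0.32 against -0.18 over all genes. For PP2, 15 (18.1%) were higher, where 9.28% of all genes were, and 1 lower, where 14.7% were, with a median of 0.22 against -0.19. These counts leaned on single libraries. Without MSC replicate 3, 13 members were higher in PP1 and 7 in PP2, where 907 and 969 of all 13797 tested genes were. For PP2 the share of members was then close to that of all genes. The member medians were 0.18 and 0.08, against -0.17 and -0.20 over all genes. Without PP1 replicate 1 the PP1 count was 15, where 990 of all genes were higher. Without MSC replicate 1 the PP2 count was 9, where 980 of all genes were higher. The lower members were Ndufa4l2 and Cox4i2 in PP1 and Sdha in PP2. The 6 osteoclast markers summed to 2768 to 15655 normalized counts in PP1 and 590 to 2534 in PP2, against 6083 to 7661 in MSC, and the 5 macrophage and leukocyte markers to 454 to 798, 2.65 to 196 and 69.3 to 151 in the same groups. Of 5 osteoclast markers tested, 4 were higher and 0 lower in PP1 than in MSC, with a median difference of 4.47. Without MSC replicate 3, 3 were higher. In PP2, 1 was higher and 1 lower than in MSC. Of 3 macrophage and leukocyte markers tested, 1 was higher in PP1 than in MSC and 0 in PP2. The part of these 2 lists in the member differences from MSC was not tested.

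A set of 14 members was higher in PSC than in each of PP1, PP2 and MSC (7.04% of all genes showed this): Ndufa1, Ndufa8, Ndufb3, Ndufc1 and Ndufs5 of complex I, Uqcr11, Uqcrb and Uqcrq of complex III, Cox5a, Cox6a1 and Cox7a2 of complex IV, and Atp5b, Atp5g1 and Atp5g3 of complex V. Without MSC replicate 3 the count was also 14, of which 12 were shared. It was 7 without PSC replicate 4 and 9 on CPM of the library total. Cox6a1, Uqcr11, Uqcrq, Atp5b, Atp5g1 and Atp5g3 kept the pattern in each of the 30 other settings tried. A different set of 8 members was higher than MSC in each of PSC, PP1 and PP2 (1.57% of all genes), among them Sdhb, Uqcrc1, Uqcrfs1, Cox7a2l, Atp5c1 and Atp5h. The size of that set depended on the setting. Without MSC replicate 3 only Uqcrfs1 remained, the count was 18 with a replicate block and 14 on CPM, and it was 2 without PSC replicate 4, 4 without PSC replicate 2 or MSC replicate 1, and 5 without PSC replicate 3 or PP1 replicate 1.

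Complex I couples NADH oxidation to proton pumping through a small catalytic core and many accessory subunits. The nuclear core subunits, such as Ndufv1 and Ndufs7, include those that carry the flavin and iron-sulfur clusters. Between PSC and PP1, 7 of 30 accessory members (Ndufa4 and Ndufa4l2 counted with them) were higher in PSC. This was 23.3%, where 16.1% of all genes were higher, and the accessory median was 0.22. Of the 7 core members 1 was lower (14.3%, where 15.1% of all genes were), with a core median of -0.07. The split into core and accessory subunits was looked at after the values were seen, and the difference between them was not tested.

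Ndufa1, an accessory subunit known from hamster cells to be needed for assembly, had 3437, 3381, 3023 and 3565 normalized counts in PSC. It had 1649, 2379, 1730 and 1877 in PP1 and 1517, 1883, 1189 and 2216 in PP2, against 2404, 2527, 1665 and 2690 in MSC. Every PSC library lay above every other library. The difference was 0.82 ± 0.18 (log2, SE) from PP1, with an adjusted p of 0.00136, and 1.01 ± 0.18 from PP2, with an adjusted p of 0.000181. From MSC it was 0.55, called with an adjusted p of 0.0276 that ranged from 0.0027 to 0.12 over the 30 settings. That call was lost without MSC replicate 3 (0.40), PSC replicate 1 (0.54), PSC replicate 2 (0.55) or PSC replicate 4 (0.52).

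Ndufc1, another accessory subunit of the membrane arm, was also highest in PSC, but lowest in MSC. It had 1984, 2075, 1848 and 2283 normalized counts in PSC, 1594, 1530, 1317 and 1541 in PP1 and 1407, 1214, 1094 and 1193 in PP2, against 1157, 1266, 830 and 1260 in MSC. No PSC library overlapped another group. The largest difference, 0.88 ± 0.14 from MSC, had an adjusted p of 0.00016 and was called in all 30 other settings. The smallest, 0.45 from PP1, was lost without PSC replicate 4 (0.40) or PP1 replicate 3 (0.39). On CPM of the library total, Ndufc1 was no longer called higher in PSC than in both PP1 and PP2.

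Ndufv1 and Ndufs7, singled out after their values were seen, went the other way. Ndufv1, which holds the NADH site, had 2451, 3536, 2856 and 3775 normalized counts in PSC, 3748, 4009, 4012 and 4820 in PP1 and 3585, 3396, 4370 and 3986 in PP2, against 2188, 2938, 2143 and 2943 in MSC. The highest PSC library overlapped the lowest PP1 library. Its level was lower in PSC than in PP1 by a log2 difference of -0.41 ± 0.14 with an adjusted p of 0.0381, which ranged from 0.01 to 0.14 over the other settings. That call was lost without PSC replicate 1 (-0.29), PSC replicate 3 (-0.37), PP1 replicate 2 (-0.42), PP1 replicate 3 (-0.42) or PP1 replicate 4 (-0.33). PP1 exceeded MSC by 0.71 ± 0.14, with an adjusted p of 0.00159 and a call in all 30 other settings. Ndufs7, a core subunit that carries an iron-sulfur cluster, was lower in PSC than in PP2 by a log2 difference of -0.37 ± 0.12, with an adjusted p of 0.0253. That call was lost without PSC replicate 4 (-0.34), PP2 replicate 1 (-0.31) or PP2 replicate 2 (-0.34).

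Levels can be compared between genes only per length, here per kilobase of all exons annotated in GENCODE M21, which lowers the value of genes with long rare exons. On that scale Ndufb11 and Ndufa2 had the highest levels in complex I, at 8098 and 6723 normalized counts per kb over the 16 libraries. Both are accessory subunits. Ndufb11 had 6948, 7040, 6644 and 8014 normalized counts in PSC, 8404, 9001, 6645 and 8788 in PP1 and 7541, 7675, 7923 and 8084 in PP2, against 6322, 6495, 5193 and 6933 in MSC. It was higher in PP1 than in MSC by 0.39 ± 0.11, with an adjusted p of 0.0117. Ndufa2 averaged 4546 ± 318 normalized counts in PSC, 3632 ± 398 in PP1 and 3644 ± 782 in PP2, against 3559 ± 604 in MSC, and passed the threshold in no pair of groups.

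**Figure D3:**
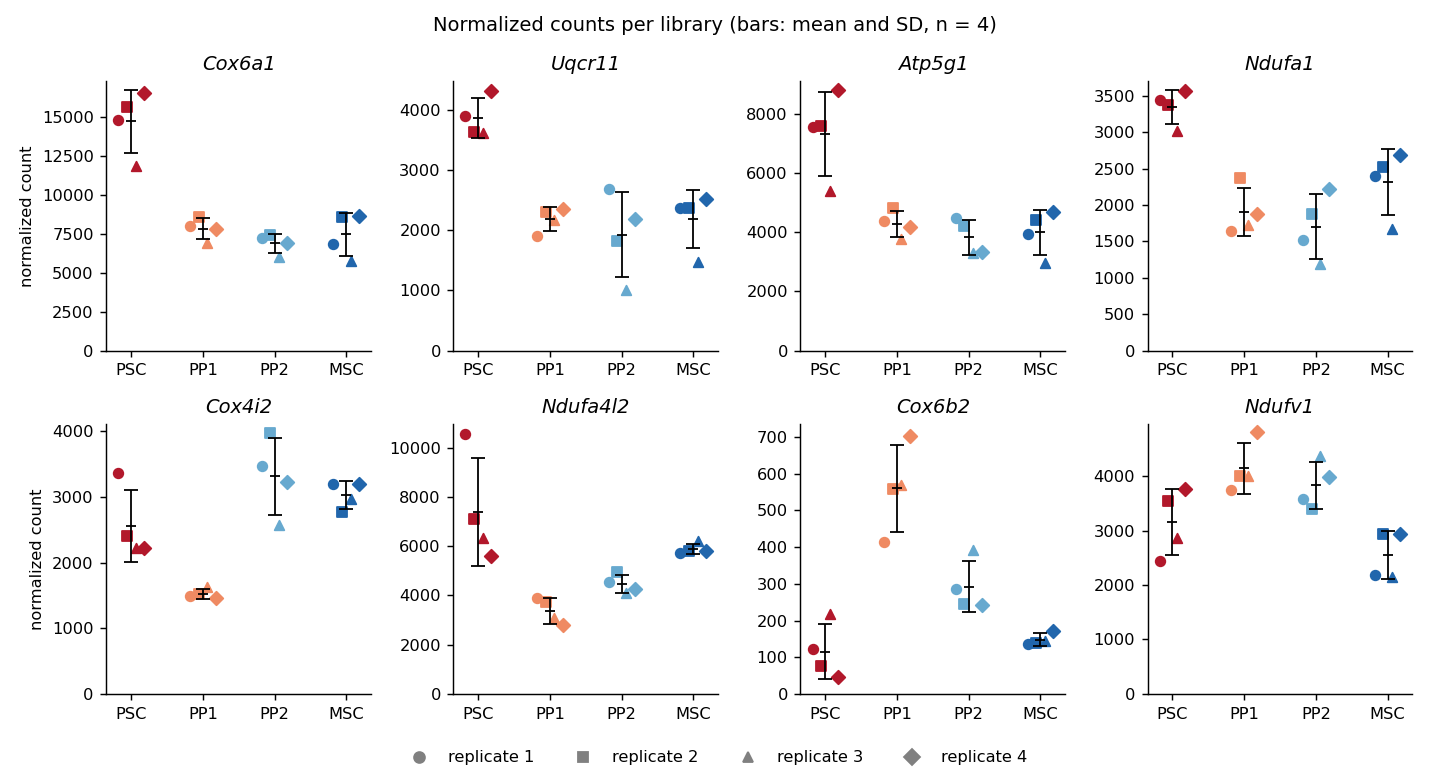
Normalized counts per library of 8 members, with symbols for libraries and bars for mean and SD (n = 4). Cox6a1, Uqcr11, Atp5g1 and Ndufa1 lie highest in PSC with no overlap, Cox4i2 and Ndufa4l2 lie lowest in PP1, Cox6b2 lies highest in PP1, and Ndufv1 is higher in PP1 than in PSC with some overlap.

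Ndufa4 carries a complex I name but is now regarded as a subunit of complex IV, and Ndufa4l2 is its paralog known to be induced under low oxygen and to lower respiration. Ndufa4l2 had 10571, 7127, 6338 and 5593 normalized counts in PSC, 3894, 3754, 3080 and 2794 in PP1 and 4568, 4935, 4113 and 4276 in PP2, against 5743, 5799, 6212 and 5822 in MSC. All PSC and MSC libraries lay above all PP1 and PP2 libraries. PSC exceeded PP1 by 1.10 ± 0.15, with an adjusted p of 1.26e-05, and PP2 by 0.69 ± 0.15, with an adjusted p of 0.00148. In PP1 it was lower than in MSC by a log2 difference of -0.81 ± 0.15, with an adjusted p of 0.000656. All 3 calls were made in each of the 30 other settings. Ndufa4 itself averaged 3715 ± 584 normalized counts in PSC, 3187 ± 487 in PP1 and 3129 ± 350 in PP2, against 2807 ± 603 in MSC, with no call in any pair. For each 100 Ndufa4 counts there were 206 ± 77 Ndufa4l2 counts in PSC, 107 ± 18 in PP1 and 144 ± 12 in PP2, against 221 ± 70 in MSC.

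Complex II, the succinate dehydrogenase, has 4 subunits and is shared with the citric acid cycle. Sdha, the flavoprotein that oxidises succinate, had 2787, 3642, 3241 and 4102 normalized counts in PSC, 2683, 2626, 2688 and 2984 in PP1 and 1333, 2268, 2496 and 2040 in PP2, against 2309, 2912, 2988 and 2779 in MSC. It was higher in PSC than in PP2 by 0.78 ± 0.16, with an adjusted p of 0.000849 and a call in all 30 other settings. PP2 had the lowest mean and PP2 replicate 1 the lowest library, while the highest PP2 library overlapped the MSC libraries. Sdha was lower in PP2 than in MSC by a log2 difference of -0.46, with an adjusted p of 0.0422 that ranged from 0.01 to 0.15. That call was lost without PP2 replicate 1 (-0.27), PP2 replicate 4 (-0.48), MSC replicate 2 (-0.43), MSC replicate 3 (-0.42), MSC replicate 4 (-0.46) or PSC replicate 2 (-0.46). It was also lost with no filter, with edgeR and TMM or RLE scaling, on CPM, and without PP2 replicates 1 and 3 together.

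Sdhb, Sdhc and Sdhd, the iron-sulfur subunit and the membrane anchors, were each higher in PSC than in MSC, and Sdha was not called there. Sdhd had 6609, 7407, 6114 and 6882 normalized counts in PSC, 7388, 7149, 5683 and 5590 in PP1 and 6443, 6083, 5139 and 5990 in PP2, against 5169, 5078, 3881 and 4970 in MSC. Its PSC and MSC libraries did not overlap. The PSC difference from MSC was 0.51 ± 0.12 for Sdhd, with an adjusted p of 0.00344, and it was called in all 30 other settings. For Sdhb it was 0.43 and for Sdhc 0.46, with adjusted p-values of 0.0151 and 0.0109. Both were lost without MSC replicate 3 (0.34 and 0.37), and Sdhb also without PSC replicate 2 or PSC replicate 4 (0.37 each). Sdhb averaged 3238 ± 411 in PSC, 3148 ± 97.9 in PP1 and 3218 ± 468 in PP2, against 2412 ± 331 in MSC, so the 3 GFP-positive groups were nearly level.

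In complex III, the cytochrome bc1 complex, the small subunits Uqcr11, Uqcrq and Uqcrb were higher in PSC than in each other group, while the Rieske protein was higher in all 3 GFP-positive groups than in MSC. Uqcr11, a small subunit, had 3895, 3628, 3608 and 4309 normalized counts in PSC, 1908, 2302, 2161 and 2345 in PP1 and 2683, 1815, 1007 and 2193 in PP2, against 2373, 2366, 1477 and 2516 in MSC. No PSC library overlapped another group. The differences were 0.83 ± 0.22 from PP1, 1.09 ± 0.22 from PP2 and 0.85 ± 0.22 from MSC, with adjusted p-values of 0.00725, 0.000758 and 0.00784. Uqcrq, which binds near cytochrome b, had 4649, 5705, 4528 and 6236 normalized counts in PSC, 3071, 2863, 2614 and 2937 in PP1 and 3080, 3475, 2226 and 3223 in PP2, against 3112, 3504, 1977 and 3797 in MSC. It too had no overlap between PSC and the rest, with differences of 0.87, 0.82 and 0.80 from PP1, PP2 and MSC. Both genes were called against each other group in all 30 other settings.

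The small subunit Uqcrb averaged 2607 ± 338 in PSC, 1998 ± 173 in PP1 and 1893 ± 157 in PP2, against 1675 ± 308 in MSC. It was higher in PSC than in MSC by 0.65 ± 0.14, with an adjusted p of 0.00172 and a call in all 30 other settings. Its call against PP1, 0.38 with an adjusted p of 0.0409, ranged from 0.0072 to 0.15 and was made in 20 of the 30 other settings. It was lost without PSC replicate 1 (0.37), PSC replicate 2 (0.36), PSC replicate 4 (0.31), PP1 replicate 1 (0.40), PP1 replicate 2 (0.32), PP1 replicate 3 (0.37), MSC replicate 1 or MSC replicate 2 (0.38 each). Uqcrfs1, the Rieske iron-sulfur protein that passes electrons toward cytochrome c, instead had 6124, 5990, 5073 and 6404 normalized counts in PSC, 6482, 6286, 5690 and 6995 in PP1 and 7153, 6158, 5661 and 6193 in PP2, against 4437, 4947, 3671 and 4756 in MSC. Every GFP-positive library lay above every MSC library. It was higher than in MSC by 0.41 in PSC, 0.52 in PP1 and 0.50 in PP2, with adjusted p-values of 0.0091, 0.00196 and 0.00228, in all 30 other settings. Uqcrfs1 was named after its values were seen. Uqcrh, the hinge protein and the highest complex III member at 6685 normalized counts per kb, averaged 8408 ± 622 in PSC, 9235 ± 787 in PP1 and 8337 ± 1142 in PP2, against 7098 ± 1296 in MSC. Uqcr10, a further small subunit at 5882 per kb, averaged 4196 ± 498 in PSC, 3631 ± 440 in PP1 and 3037 ± 748 in PP2, against 2878 ± 626 in MSC.

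Complex IV has several subunits that exist as tissue isoforms, and its members differed most in their patterns. Cox6a1, the broadly expressed form of subunit VIa, lies at chr5:115345642-115348981 on the minus strand and was the highest member of all at 13122 normalized counts per kb. It had 14779, 15645, 11833 and 16535 normalized counts in PSC, 7984, 8552, 6899 and 7823 in PP1 and 7222, 7417, 6002 and 6894 in PP2, against 6837, 8551, 5782 and 8634 in MSC. The lowest PSC library lay well above the highest library of any other group. Its PSC level was 1.87-fold that in PP1, 2.13-fold that in PP2 and 1.98-fold that in MSC, with adjusted p-values of 2.19e-05, 2.29e-06 and 2.32e-05. Each call was made in all 30 other settings, and the fold over MSC corresponds to a log2 difference of 0.99 ± 0.13 with all libraries and 0.87 without MSC replicate 3.

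Cox4i1, the common form of subunit IV, did not follow Cox6a1. It had 15266, 14818, 13848 and 16348 normalized counts in PSC, 19299, 17910, 15003 and 17287 in PP1 and 18016, 17038, 13494 and 13484 in PP2, against 12907, 12981, 8930 and 13357 in MSC. PP1 exceeded MSC by 0.54 ± 0.13, with an adjusted p of 0.00554, in all 30 other settings, and the gene was not called between PSC and any other group. For each 100 Cox4i1 counts there were 97.2 ± 8.6 Cox6a1 counts in PSC, 45.1 ± 2.7 in PP1 and 44.8 ± 4.6 in PP2, against 62.1 ± 6.1 in MSC. This ratio was formed after both genes were seen and was not tested.

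Cox4i2, the isoform of subunit IV known to be induced by low oxygen and to occur in lung and pericytes, was lowest in PP1. It had 3362, 2407, 2218 and 2214 normalized counts in PSC, 1495, 1527, 1630 and 1454 in PP1 and 3475, 3979, 2574 and 3219 in PP2, against 3198, 2763, 2966 and 3190 in MSC. No PP1 library overlapped another group. The PP1 level was lower by a log2 difference of -1.10 ± 0.14 than in PP2 and -0.99 ± 0.14 than in MSC, with adjusted p-values of 0.000363 and 4.31e-05. PSC was higher than PP1 by 0.72 ± 0.14, with an adjusted p of 0.0005. These 3 calls were made in all 30 other settings. A lower level in PSC than in PP2 (-0.38, adjusted p 0.0413, range 0.0042 to 0.14) was called in 17 of them. It was lost without PP2 replicate 2 (-0.29), PP2 replicate 1 (-0.35), PP2 replicate 4 (-0.39), PSC replicate 2 (-0.36), PSC replicate 3 or PSC replicate 4 (-0.32 each), and MSC replicate 1 or MSC replicate 4 (-0.38 each). The 4 pericyte and smooth muscle markers summed to 733 to 2673 normalized counts in PSC, 4554 to 7340 in PP1 and 3938 to 4959 in PP2, against 10060 to 12222 in MSC, and their part in the Cox4i2 levels was not tested. For each 100 Cox4i1 counts there were 17.0 ± 3.6 Cox4i2 counts in PSC, 8.89 ± 1.36 in PP1 and 21.4 ± 2.6 in PP2, against 25.8 ± 5.2 in MSC. In a 2-sided exact permutation test over the 4 libraries of each group the smallest possible p is 0.0286. PSC against PP1, PP1 against PP2 and PP1 against MSC reached it, as did PP1 against PP2, PP1 against MSC and PP2 against MSC for the ratio of Ndufa4l2 to Ndufa4. After adjustment over the 12 tests of these ratios, each of these 6 had an adjusted p of 0.0571, above 0.05.

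Cox6b2 and Cox8c, forms of subunits VIb and VIII known mainly from testis, were low in level and highest in PP1. Cox6b2 had 123, 75.4, 217 and 45.3 normalized counts in PSC, 413, 557, 570 and 702 in PP1 and 287, 245, 391 and 243 in PP2, against 135, 138, 146 and 173 in MSC. The PSC libraries lay below all PP1 and PP2 libraries, and Cox6b2 was the only member lower in PSC than in both (11.8% of all genes). The log2 difference between PSC and PP1 was -2.48 ± 0.40, with an adjusted p of 8.21e-05, and between PSC and PP2 -1.54 ± 0.40, with an adjusted p of 0.00589. The PP1 call was made in all 30 other settings, and the PP2 call was lost when PP2 replicates 1 and 3 were left out together (-1.31) and when only the 8 PSC and PP2 libraries were fitted (-1.54). For each 100 counts of the common form Cox6b1 there were 2.34 ± 1.73 Cox6b2 counts in PSC, 12.9 ± 3.8 in PP1 and 7.16 ± 2.70 in PP2, against 4.09 ± 1.06 in MSC. Cox8c had 33.5, 46.3, 55.3 and 31.4 normalized counts in PSC, 211, 46.8, 369 and 259 in PP1 and 75.8, 141, 63.6 and 160 in PP2, against 11.2, 38.3, 24.8 and 13.2 in MSC. The PP1 library at 46.8 lay within the PSC range. It was higher in PP1 than in MSC by 3.11 ± 0.69 with an adjusted p of 0.00316, in all 30 other settings. Its lower level in PSC than in PP1 (-2.09, adjusted p 0.0269) was lost without PSC replicate 1 (-2.0), PSC replicate 4 (-1.97), PP1 replicate 1 (-2.0), PP1 replicate 3 (-1.73) or PP1 replicate 4 (-1.90).

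The muscle forms Cox6a2, Cox7a1 and Cox8b were low, at 0 to 101 normalized counts in every library, and passed the threshold in no pair. Cox6a2 had 0, 18.1, 0 and 11.6 normalized counts in PSC, 35.1, 0, 0 and 0 in PP1 and 101, 77.3, 0 and 35.1 in PP2, against 6.01, 2.74, 3.42 and 4.41 in MSC. The 11 skeletal muscle markers summed to 1462 to 3330 normalized counts in PSC, 1253 to 3343 in PP1 and 3994 to 8175 in PP2, against 908 to 2261 in MSC, with Acta1 at 2826 ± 1061 in PP2. The markers did not move together. Of the 6 tested, 4 were lower and 2 higher in PSC than in PP1. Against MSC, 4 were higher and 1 lower in PP1, and 4 higher and 0 lower in PP2. Their part in the Cox6a2 values was not tested. The common forms were abundant: Cox8a had 9603, 9767, 8474 and 10651 normalized counts in PSC, 8198, 7570, 7525 and 8088 in PP1 and 7817, 7234, 5634 and 7252 in PP2, against 7140, 7837, 5716 and 8201 in MSC. PSC exceeded PP2 by 0.47 ± 0.12, with an adjusted p of 0.00429 in all 30 other settings.

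Cox7a2, the common form of subunit VIIa, averaged 5397 ± 390 normalized counts in PSC, 4053 ± 709 in PP1 and 3579 ± 540 in PP2, against 3696 ± 703 in MSC. PSC exceeded PP2 by 0.60 ± 0.15, with an adjusted p of 0.00487, and MSC by 0.57 ± 0.15, with an adjusted p of 0.0102, each in all 30 other settings. Its difference from PP1, 0.43 with an adjusted p of 0.0395, was called in 24 of them, and was lost without PP1 replicate 3 (0.29), PSC replicate 1 (0.42), PSC replicate 2 (0.42) or PSC replicate 4 (0.40), with no filter (0.43) and on CPM (0.34). Cox7a2l, a related protein that joins complexes III and IV into supercomplexes, showed another order, with 13345, 12219, 14286 and 13943 in PSC, 16075, 15637, 14920 and 15810 in PP1 and 15846, 16129, 13326 and 13520 in PP2, against 11182, 11505, 9199 and 11659 in MSC. Every GFP-positive library lay above every MSC library. It was higher than in MSC by 0.53 ± 0.09 in PP1 and 0.43 ± 0.09 in PP2, with adjusted p-values of 0.000503 and 0.00233, in all 30 other settings. In PSC its difference from MSC was 0.31 and was lost without MSC replicate 3 (0.23), PSC replicate 3 (0.28) or PSC replicate 4 (0.29).

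Complex V combines a catalytic head with a membrane ring that protons turn. Atp5a1 and Atp5b, the alpha and beta subunits of the head, were the most abundant members by normalized count. Atp5b had 34601, 38125, 31982 and 39342 normalized counts in PSC, 27276, 27954, 24174 and 26847 in PP1 and 24756, 25029, 23657 and 24666 in PP2, against 22448, 26148, 19865 and 26445 in MSC. No PSC library overlapped another group, and the differences were 0.44, 0.55 and 0.61 (SE 0.10 each) from PP1, PP2 and MSC, with adjusted p-values of 0.00239, 0.000287 and 0.000232. Atp5a1, with which it forms the hexamer, averaged 35430 ± 1952 in PSC, 33582 ± 1610 in PP1 and 32014 ± 2951 in PP2, against 26930 ± 2530 in MSC, and was higher than in MSC by 0.40 ± 0.09 in PSC, with an adjusted p of 0.00401 in all 30 other settings. The PSC difference of Atp5a1 from PP1 and from PP2 was not called.

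Atp5g1, Atp5g2 and Atp5g3 encode the same mature subunit c of the rotor ring from different genes. Atp5g1 lies at chr11:96068852-96075670 on the minus strand. It had 7543, 7573, 5394 and 8813 normalized counts in PSC, 4367, 4815, 3756 and 4160 in PP1 and 4467, 4205, 3315 and 3319 in PP2, against 3946, 4405, 2965 and 4684 in MSC. All PSC libraries were above all others, and the PSC level was 1.7-fold that in PP1, 1.9-fold that in PP2 and 1.83-fold that in MSC, with adjusted p-values of 0.000895, 0.000122 and 0.000456. Atp5g3 had 12209, 14297, 10433 and 14884 in PSC, 8995, 9009, 7730 and 8878 in PP1 and 7918, 8223, 6066 and 6888 in PP2, against 7559, 8707, 5862 and 8646 in MSC, with 1.49-fold, 1.78-fold and 1.69-fold higher levels in PSC in the same order. Both genes were called against each group in all 30 other settings. Atp5g2 averaged 6344 ± 374 in PSC, 6822 ± 847 in PP1 and 5313 ± 646 in PP2, against 5119 ± 641 in MSC, and was not called between PSC and PP1 or PP2. The 3 genes encode an identical mature peptide, and whether the authors' counting split reads between similar stretches was not tested, so their values are uncertain to that extent.

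Atp5c1, the gamma subunit that forms the turning shaft, was highest in PP1. It was named after its values were seen. It had 10171, 10851, 10754 and 11883 normalized counts in PSC, 16143, 14604, 12783 and 14474 in PP1 and 13493, 13848, 10876 and 12050 in PP2, against 9202, 9074, 6751 and 9448 in MSC. It was lower in PSC than in PP1 by a log2 difference of -0.41 ± 0.11, with an adjusted p of 0.00897, and higher in PP1 than in MSC by 0.76 ± 0.11, with an adjusted p of 7.5e-05, both in all 30 other settings. Atp5s, which the rule takes by its name although its product is not an ATP synthase subunit in the strict sense, had 191, 177, 125 and 243 in PSC, 25.4, 59.3, 86.8 and 74.2 in PP1 and 254, 70.6, 138 and 211 in PP2, against 145, 118, 95 and 124 in MSC. Its difference between PSC and PP1, 1.66 ± 0.51 with an adjusted p of 0.0183, was lost without PP1 replicate 1 (1.29) or PSC replicate 4 (1.51).

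Of 6 subunits or partners that the naming rule missed, PSC was higher than PP1 in 2, than PP2 in 3 and than MSC in 5 (83.3%, where 12.1% of all genes were), and than MSC in 2 without MSC replicate 3. Cycs, the electron carrier cytochrome c, averaged 1886 ± 414 normalized counts in PSC, 924 ± 215 in PP1 and 705 ± 221 in PP2, against 928 ± 237 in MSC, a 2.74-fold higher level in PSC than in PP2 with an adjusted p of 0.000128. Among 14 complex I assembly factors, 1 was higher in PSC than in PP1 (7.14%, where 16.1% of all genes were). PSC was higher than PP2 in 4 of them (28.6%, where 17.6% of all genes were) and than MSC in 2 (14.3%, where 12.1% were). Without MSC replicate 3 the counts against PP2 and MSC were 2 and 1. Foxred1, a complex I assembly factor, averaged 818 ± 155 in PSC, 362 ± 112 in PP1 and 440 ± 133 in PP2, against 398 ± 70.0 in MSC. Among 24 assembly factors of complexes II to V, 5 were higher (20.8%, where 17.6% of all genes were) and 2 lower (8.33%, where 15.2% were) in PSC than in PP2. The 2 lower were Surf1, a complex IV assembly factor at 854 ± 184 in PSC and 1449 ± 209 in PP2, and the complex III factor Uqcc3 (AI462493 in the table) at 771 ± 42 in PSC and 1515 ± 337 in PP2.

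Of 16 citric acid cycle genes, 8 were higher in PSC, 7 in PP1 and 4 in PP2 than in MSC. Over all genes 12.1%, 8.88% and 9.28% were higher. Without MSC replicate 3 the citric acid cycle counts were 5, 4 and 3, where 1169, 907 and 969 of all 13797 tested genes were higher. PSC was higher than PP2 in 6 of the 16 and lower in 1, where 17.6% and 15.2% of all genes were. Against PP1, 2 were higher and 1 lower in PSC, where 16.1% and 15.1% of all genes were. Idh3b, a subunit of the NAD-linked isocitrate dehydrogenase, was lower in PSC, at 1617 ± 171 normalized counts, than in PP1, at 2602 ± 398, with an adjusted p of 0.000462. Of 75 mitochondrial ribosomal protein genes, 31 had a higher level in PSC than in MSC (41.3%, where 12.1% of all genes did). Without MSC replicate 3 there were 11. Of 83 cytosolic ribosomal protein genes, PSC exceeded MSC in 74 (89.2%), PP2 in 43 (51.8%) and PP1 in 24 (28.9%). Over all genes these shares were 12.1%, 17.6% and 16.1%. Without MSC replicate 3 the cytosolic count against MSC was 59. The cytosolic median differences were 0.53, 0.35 and 0.22, against 0.44, 0.24 and 0.18 for the respiratory chain. The ribosomal protein transcripts thus moved in the same direction as the respiratory members in each of these pairs, and their part in the result was not tested.

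Glycolytic genes differed more. Of 17, PSC was higher than PP1 in 11 (64.7%), than PP2 in 12 (70.6%) and than MSC in 11 (64.7%). Over all genes these shares were 16.1%, 17.6% and 12.1%. The glycolytic medians were 1.24, 1.11 and 0.78. Against MSC, 9 of the 17 were lower in PP1 (52.9%, where 12.6% of all genes were). For PP2, 5 were lower than in MSC (29.4%, where 14.7% of all genes were). The respiratory medians of PP1 and PP2 against MSC were above 0. Ldha, which makes lactate, averaged 49902 ± 7408 normalized counts in PSC, 15498 ± 2382 in PP1 and 14606 ± 1401 in PP2, against 16907 ± 3064 in MSC.

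**Figure D4:**
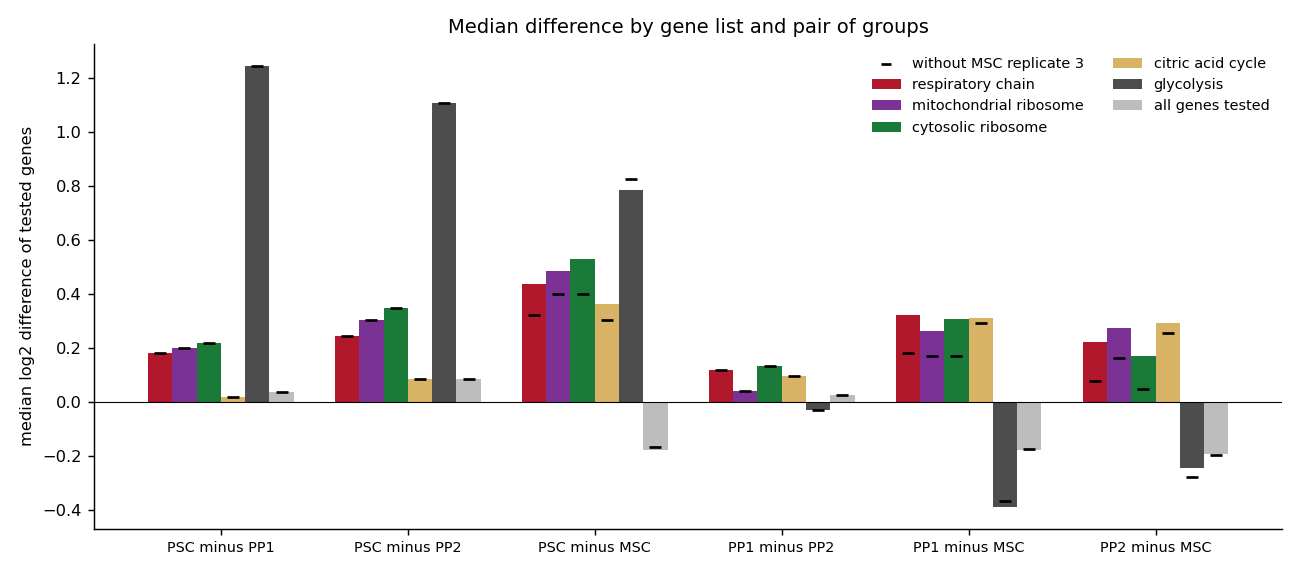
Median log2 difference over the tested genes of each list in 6 pairs of groups, with black dashes for the value without MSC replicate 3. Respiratory chain medians are 0.18, 0.24 and 0.44 for PSC minus PP1, PP2 and MSC, and glycolysis medians are 1.24, 1.11 and 0.78 there but -0.39 and -0.24 for PP1 and PP2 minus MSC.

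Among the regulators of respiratory genes, the co-activator Ppargc1a was near 0, at 4.27 ± 8.55 normalized counts in PSC, 35.4 ± 69.3 in PP1 and 15.0 ± 18.7 in PP2, against 18.4 ± 10.4 in MSC, and 6 of 16 libraries were listed at 0. Ppargc1b, its relative, had group means between 8.78 and 27.2. Nrf1, Gabpa and Esrra passed the threshold in no pair. Nrf1 averaged 486 ± 111 in PSC, 516 ± 152 in PP1 and 518 ± 66 in PP2, against 509 ± 17 in MSC. Gabpb1, the partner of GABPA in the GABP factor, averaged 1367 ± 192 in PSC, 938 ± 251 in PP1 and 775 ± 149 in PP2, against 981 ± 128 in MSC, and was higher in PSC than in PP2 by 0.83 with an adjusted p of 0.00209. Tfam, which packages and transcribes mitochondrial DNA, averaged 1055 ± 36 in PSC, 820 ± 112 in PP1 and 803 ± 133 in PP2, against 770 ± 89 in MSC, and was higher in PSC than in MSC by 0.46 with an adjusted p of 0.0342, a call that was lost without MSC replicate 3.

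Several members share exonic bases with a neighbour, mostly on the opposite strand, and the strand setting of the counting is not given in the sources used here, so reads of the pair cannot be told apart. Ndufb6 shares 39.0% of its exonic bases with Smim27, Ndufa13 30.0% with Tssk6 and Uqcrc2 19.7% with Pdzd9, and among the genes named above Ndufb11 shares 12.9% with Rbm10 and Cox4i1 9.94% with Emc8. Many respiratory chain genes have processed pseudogenes, and sharing of reads with them was not tested.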

How the data were processed

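RNA-seq libraries of 4 sorted populations, 4 libraries each, were analysed from the deposited table of 22559 genes. Per the submitters' processing notes, the authors worked on build mm10 with HTSeq 0.6.1, TopHat2 2.0.11, DESeq2 1.6.3, bcl2fastq 2.17 and cutadapt. Which settings they used is not stated there. The deposited values are a normalized signal: every value was a whole multiple, within 1e-06, of a step particular to its library (100% of values), so reads were recovered by dividing by that step, and values are called normalized counts. Because the design assumed either raw or normalized values, the test for normalized values was used.

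Differences were tested with limma 3.58.1 (R 4.3.3) with an intensity trend on log2(normalized count + 1), with group as the only term, on 13797 genes with at least 10 normalized counts in at least 4 libraries. All 16 libraries shared an estimate of the spread, and Benjamini-Hochberg adjusted p under 0.05 over all genes was a call. Fold changes are on that log scale and understate the change of low genes. Isoform ratios were tested with SciPy 1.17.1 by exact permutation. The 30 alternatives were offsets, filters, edgeR 4.0.16, DESeq2 1.42.0 and voom on recovered reads, other scalings, a replicate block, subsets of libraries and leaving out each library; leaving out the 4 libraries numbered 3 was added after the data were seen. The scripts were tested on simulated data. Named members are, per complex, the 3 with the largest range of group means and the 2 with the highest level per kb, and fixed isoform sets; others were chosen after their values were seen. Members and lists were chosen with earlier results of these data known. Positions and lengths came from GENCODE M21 and promoters from RefSeq, both of GRCm38; protein sequences were not used here. All 85 members had a position. Results for some single members are not reported here. No value column was left unused.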

Additional observations from a re-analysis of the deposited data

Results flagged for a closer look

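In 160 groups of 4 libraries, the highest or lowest value was compared with the rest, and 16 stood apart by Dixon's criterion at the 95% level, where chance alone gives about 1 in 20. MSC replicate 3 accounted for 10 of them. Its library median of log2(normalized count + 1), relative to each gene's mean, was -0.62 over all members, -0.61 over complex I and -0.59 over complex IV. The other 3 MSC libraries lay between -0.16 and -0.07 over all members. In the same library Cox4i1 was lowest at 8930 normalized counts, Cox6b1 at 2601, Ndufa2 at 2661, Ndufa4 at 1903, Sdhd at 3881 and Uqcr11 at 1477, whereas Ndufa4l2 was highest at 6212.

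PP1 replicate 3 was lowest in its group for Atp5g3 at 7730 normalized counts, Cox7a2 at 2994, Ndufa4 at 2461 and Sdhc at 3408. PSC replicate 1 was highest for Cox4i2 at 3362, and the other 3 PSC libraries had 2214 to 2407. PP1 replicate 1 had 35.1 normalized counts of Cox6a2, and the other 3 PP1 libraries were listed at 0.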

How the results depend on the processing

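Under the 30 alternatives, all complex medians moved by less than the SD of that complex's library medians within groups. This does not check the direction of medians near 0. No named member reversed in a pair where it was called with all libraries or in the alternative. Of 71 calls of named members, 42 held in every alternative, 29 were lost in at least 1, and 19 of these were lost without MSC replicate 3. Counts of called members moved by over 1.5 times as follows. For PSC against PP1, lower members numbered 8 on CPM of the library total, 7 with the replicate block and 7 without PP2 replicates 1 and 3, against 4. For PSC against PP2, lower members numbered 1 with only the 8 libraries compared and 1 without PP2 replicates 1 and 3, against 3. For PP1 against PP2, the replicate block gave 2 higher and 2 lower. For PP2 against MSC, higher members numbered 25 on CPM and 27 with the block, against 15; lower members numbered 0 with no filter, edgeR with TMM or RLE scaling, CPM or without PP2 replicates 1 and 3, and 3 with the block, against 1. Leaving out single libraries gave 2 to 7 lower members for PSC against PP1, 1 to 4 lower for PSC against PP2, 27 to 51 higher and 0 to 1 lower for PSC against MSC, 13 to 34 higher for PP1 against MSC, and 7 to 18 higher and 0 to 2 lower for PP2 against MSC. The cause was not tested. Over all tested genes, same-numbered pairs of libraries correlated from -0.02 to 0.15, and 2 of 24 pairs were above 0.1. Only PSC against PP1 at replicate 1 had a negative correlation. By the cut of 0.1 the numbers were not taken to pair libraries, although replicate 3 had the lowest member and ribosomal protein shares in all 4 groups. Whether same-numbered libraries share a feature was not tested. The other counts of higher members under the block were 23, 35, 61 and 42 for PSC against PP1, PP2 and MSC and for PP1 against MSC. The median of all genes moved by over 0.1 against MSC: with edgeR and TMM to -0.04, -0.03 and -0.03 for PSC, PP1 and PP2 (members 0.48, 0.35 and 0.25), with edgeR and RLE or DESeq2 to -0.05 for PP1 and PP2 (members 0.33 and 0.23), and on CPM to -0.06 for PP1 and -0.08 for PP2 (members 0.44 and 0.33). On CPM the member median of PSC against PP2 was 0.16. In simulated counts for PSC against PP1 over 13419 genes, 10% of 1.5-fold and 42% of 2-fold changes were recovered. Only 50 genes were changed at each fold and 55 genes were called, against 2224 higher and 2077 lower in the data. The cutoff on the unadjusted p therefore differed, and the changed genes were drawn from genes at large. These recoveries do not show how often a change in a member would be called.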
